A study of Homo sapiens with 6 samples.

Results

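Solute carriers are membrane proteins that move nutrients, ions, metals and metabolites across the plasma membrane and the membranes of mitochondria, Golgi, endoplasmic reticulum and lysosomes. They do so without hydrolysing ATP themselves, by facilitated diffusion, exchange or coupling to a sodium or proton gradient. Colorectal cancer cells draw on them for glutamine and essential amino acids, for the export of lactate and for the exchange of metabolites with mitochondria.

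The genes described here are 113 protein-coding genes with a solute carrier symbol and a mean of at least 5 FPKM over 6 libraries, out of 365 such genes considered and 58735 genes in the table. FPKM counts sequenced fragments relative to the length of a gene and a measure of the depth of its library. A further 9 genes with such a symbol were left out by name, among them the cystine carrier SLC7A11 and the glucose carrier SLC2A1. The mean over all libraries chose the members, so their levels are given as a description only. By symbol 2 members are not carriers: SLC2A4RG is a nuclear regulator of a glucose carrier gene, and SLC4A1AP is an adaptor of an anion exchanger. Of the 252 carriers below the level, 41 had no fragment in any library.

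The libraries come from SW480 cells, a human line established from a colorectal cancer and labelled wild type in every sample. Cells of 3 libraries received an siRNA against ITGB4, and cells of the other 3 libraries a negative control siRNA. The series calls the 3 libraries of a group biological replicates, and poly-T beads captured the RNA. The labels give neither the sequence or number of siRNAs nor the time after transfection. ITGB4, the integrin β4 subunit, was at 41.1, 38.1 and 37.9 FPKM with its siRNA and at 74.3, 63.8 and 69.8 FPKM with control siRNA, so transcript remained in the depleted cells (log2 difference -0.81, limma adjusted p = 0.0148). That call was lost without some single libraries: the limma adjusted p was 0.0709, 0.137 and 0.0968 without ITGB4 siRNA replicate 1, 2 or 3 and 0.0996 without control replicate 3. It was also lost with a replicate block (0.0564) and without the filter on low values (0.0618).

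Reads recovered from the FPKM values, which cover only reads assigned to genes, numbered 13715266 to 15496274 per library. Each member had 1237 to 339033 of these reads over the 6 libraries, with a median of 5777. The 8 colon epithelial markers summed to 1523 to 1564 FPKM with ITGB4 siRNA and 1471 to 1649 FPKM with control siRNA, although KRT20 and VIL1 were under 1 FPKM in every library. Of the markers of other cell types, COL1A2, COL3A1, DCN, LUM and CDH5 were at 0 in every library, and CD74 was the 1 marker with a mean above 1 FPKM. The first principal component over all 12871 genes tested, with 27.8% of the variance, did not part the groups. The second, with 21.4%, did, at 12.3, 12.1 and 0.95 with ITGB4 siRNA and -11.4, -7.84 and -6.16 with control siRNA. In bulk RNA, fewer cells with a transcript and less of it per cell cannot be told apart.

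Carriers of amino acids made up 46.4% of the summed FPKM of the members with 16 genes, and mitochondrial carriers 25.6% with 27 genes. SLC1A5, the sodium-coupled carrier of glutamine and other neutral amino acids, had the highest level. It was at 1222, 1117 and 1087 FPKM with ITGB4 siRNA and at 1254, 1029 and 1117 FPKM with control siRNA, and the control libraries alone spanned both ends of the range. SLC7A5, the light chain of the carrier of large neutral amino acids, was at 295.0, 266.6 and 268.0 FPKM with ITGB4 siRNA against 295.4, 242.2 and 265.9 FPKM with control siRNA. SLC3A2, the heavy chain that pairs with it, was at 119.8, 113.1 and 112.2 FPKM with ITGB4 siRNA against 127.7, 107.9 and 114.5 FPKM with control siRNA. SLC7A8, another light chain that pairs with SLC3A2, averaged 81.2 ± 4.85 FPKM with ITGB4 siRNA and 82.5 ± 3.13 FPKM with control siRNA (SD, n = 3 each). These 4 genes are thus among the most abundant members, and their groups overlapped.

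The mitochondrial ADP/ATP exchangers SLC25A5 and SLC25A6 ranked just after SLC1A5 and just after SLC7A5. SLC25A5 averaged 412.9 ± 10.8 FPKM with ITGB4 siRNA and 406.5 ± 7.94 FPKM with control siRNA, and SLC25A6 averaged 212.9 ± 3.77 FPKM with ITGB4 siRNA and 210.4 ± 21.8 FPKM with control siRNA (SD, n = 3 each). Both genes have several pseudogenes by symbol, which summed to 0.842 and 0.0779 FPKM, so the assignment of reads between copies is uncertain but the copies were listed at low levels. The 95% interval of the log2 difference was -0.07 to 0.11 for SLC25A5 and -0.15 to 0.19 for SLC25A6.

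The other classes were led by SLC2A4RG (68.2 FPKM over the 6 libraries) among genes of the sugar carrier families, SLC16A1 (54.4 FPKM) among carriers of organic anions and cations, and SLC20A1 (75.7 FPKM), a sodium-coupled phosphate carrier, among carriers of lipids, choline and phosphate. SLC48A1 (36.3 FPKM), a heme carrier, led the carriers of vitamins and nucleosides. SLC35B2 (37.1 FPKM), which brings the sulfate donor into the Golgi, led the nucleotide sugar family. SLC4A2 (33.01 FPKM), a chloride and bicarbonate exchanger, led the ion carriers, and SLC39A14 (29.7 FPKM), a zinc, iron and manganese importer, led the metal carriers. Their log2 differences between the groups were small, from -0.14 for SLC16A1 to 0.03 for SLC39A14.

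Just inside the threshold lay SLC15A4, a lysosomal peptide and histidine carrier, at 5.06 FPKM, SLC4A7, a sodium bicarbonate cotransporter, at 5.34 FPKM and SLC35D2, a nucleotide sugar carrier, at 5.38 FPKM. Just outside lay SLC35G2 at 4.97, SLC7A7 at 4.90 and SLC25A51 at 4.89 FPKM.

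**Figure D1:**
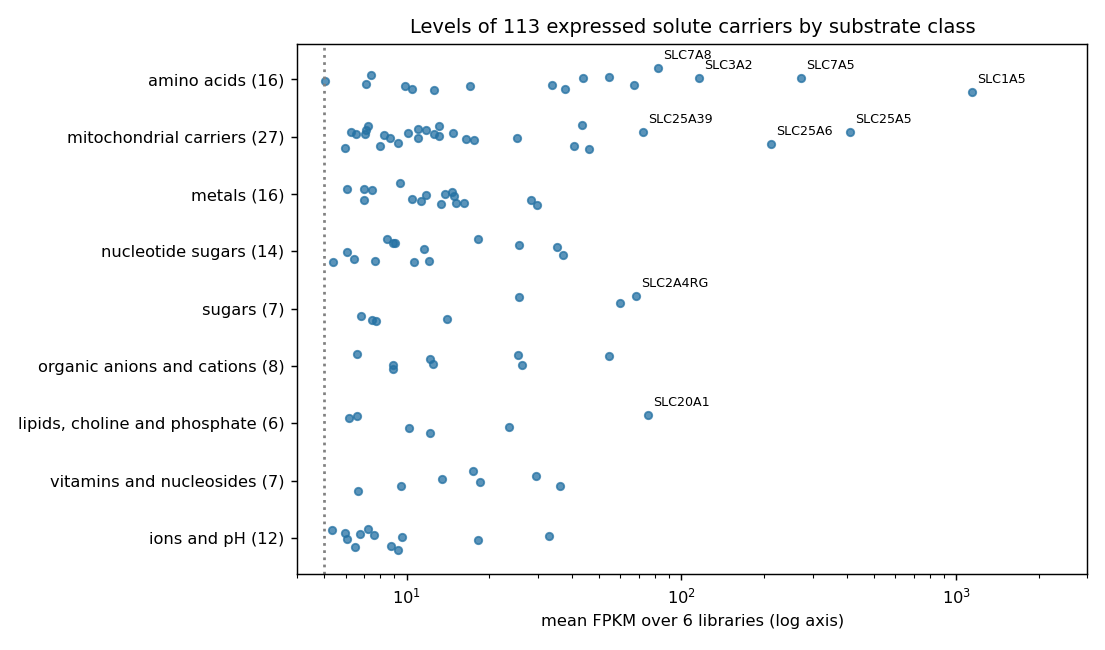
Mean FPKM over the 6 libraries (log axis) of the 113 solute carriers, 1 point per gene, in rows by substrate class with the number of genes in brackets. The dotted line marks the threshold of 5 FPKM. SLC1A5 lies farthest right, followed by SLC25A5, SLC7A5 and SLC25A6.

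The comparison asks which carrier transcripts differ when ITGB4 is depleted. With limma on log2(FPKM + 1), 0 of the 113 members passed an adjusted p of 0.05, against 6 of 12871 genes tested (0.0466%). Limma-voom on recovered reads also called 0 members, against 26 genes (0.202%). Without adjustment 9 members (7.96%) had a limma p under 0.05, beside 5.83% of all genes tested. Of these 4 were higher and 5 lower with ITGB4 siRNA, where the shares over all genes were 2.91% and 2.92%. Limma-voom had 5 higher and 5 lower (3.15% and 2.67% of all genes). The members' log2 differences ran from -0.17 to 0.22, with 62 above 0 and 51 below. Their median was 0.00695, against -0.0034 over all genes tested.

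For 15 members (13.3%) the groups did not overlap, 7 higher and 8 lower with ITGB4 siRNA, beside 11.1% of all genes tested (5.75% higher and 5.36% lower). The 95% interval reached a median of 0.161 on the log2 scale to either side of the estimate, and at most 0.391. For 113 of the 113 members it lay within -0.5 to 0.5. The summed FPKM of the members was 4268, 4093 and 4046 with ITGB4 siRNA and 4352, 3902 and 4080 with control siRNA.

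By class, 6 of 6 carriers of lipids, choline and phosphate had a log2 difference above 0 (median 0.059), and 18 of 27 mitochondrial carriers did (median 0.021). Over all genes tested the median was -0.0034. Of the 6, SLC20A1 (0.0077) and SLC44A1 (0.0072) lay near 0 and changed sign in fits without 1 library. SLC44A1 was named after its values were seen. Among carriers of organic anions and cations 5 of 8 lay below 0 (median -0.073), and among the sugar families 5 of 7 (median -0.024). The amino acid carriers lay 10 above and 6 below 0, and the metal carriers also 10 and 6. No member of any class passed the limma threshold, and the medians are descriptions of small differences.

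**Figure D2:**
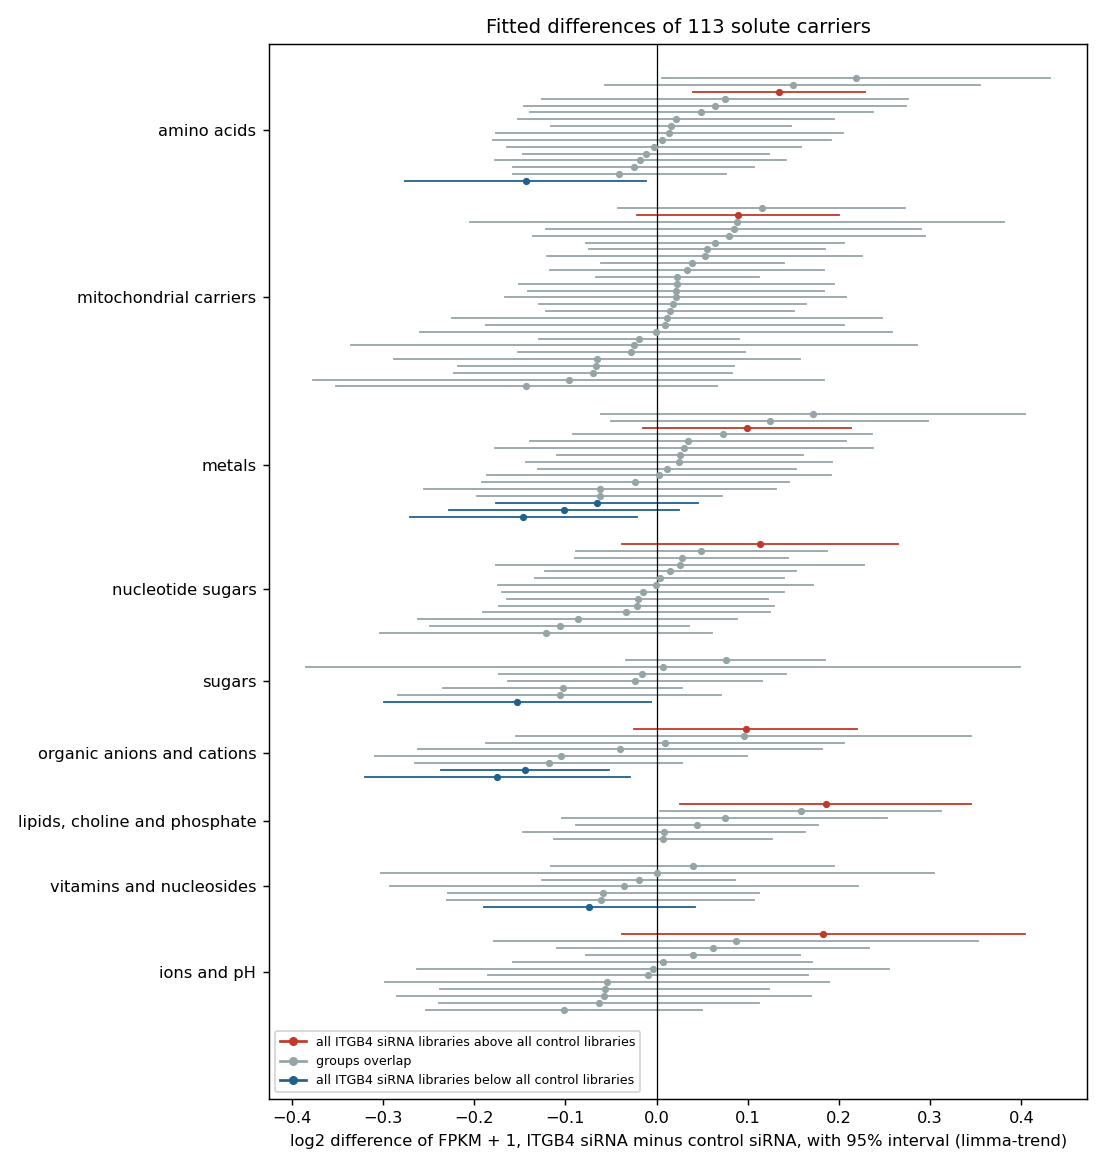
Log2 difference of FPKM + 1, ITGB4 siRNA minus control siRNA, for the 113 solute carriers, with 95% intervals from limma-trend, grouped by substrate class. Red marks the 7 members with all ITGB4 siRNA libraries above all control libraries, blue the 8 with all below, and grey the members whose groups overlap.

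Members with the smallest unadjusted p are described by what they carry. SLC16A1, which carries lactate and pyruvate together with protons, had the smallest of them. It was at 51.7, 52.2 and 50.9 FPKM with ITGB4 siRNA and at 55.6, 57.8 and 58.0 FPKM with control siRNA. The groups did not overlap, and the means differed by -9.69% (log2 difference -0.14, SE 0.0389, limma adjusted p = 0.606; exact permutation p = 0.1, the smallest that 3 against 3 libraries allow). The gene lies on chromosome 1 of GRCh38, from 112911847 to 112957013 on the minus strand.

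SLC16A6, of the same monocarboxylate family, was at 8.66, 8.57 and 7.75 FPKM with ITGB4 siRNA and at 9.04, 9.75 and 9.78 FPKM with control siRNA. All 3 libraries with ITGB4 siRNA lay below all controls (log2 difference -0.17, SE 0.0614, limma adjusted p = 0.795). SLC16A6 overlaps ARSG on the other strand, at 1.96 FPKM, and the labels do not state whether strand was used in counting.

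Among amino acid carriers, SLC7A1, the carrier of arginine and lysine, was at 58.1, 58.3 and 55.6 FPKM with ITGB4 siRNA and at 51.3, 52.4 and 52.6 FPKM with control siRNA. All 3 libraries with ITGB4 siRNA lay above all controls, by 9.93% on average (log2 difference 0.13, SE 0.0398, limma adjusted p = 0.676). SLC7A1 lies on chromosome 13 from 29509410 to 29595688. SLC38A2, a sodium-coupled carrier of small neutral amino acids, went the other way, at 30.8, 32.5 and 32.6 FPKM with ITGB4 siRNA against 33.3, 37.5 and 35.5 FPKM with control siRNA. The gap between its groups was narrow, from 32.6 to 33.3 FPKM (log2 difference -0.14, SE 0.0558, limma adjusted p = 0.816). SLC38A2 lies on chromosome 12 from 46358189 to 46372867.

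SLC6A8, the creatine carrier, had the largest positive difference of the members. It was at 49.1, 47.1 and 45.6 FPKM with ITGB4 siRNA and at 46.1, 35.7 and 40.2 FPKM with control siRNA, so that control replicate 1 lay inside the range of the other group. The means differed by 16.2% (log2 difference 0.22, SE 0.0896, 95% interval 0.01 to 0.43, limma adjusted p = 0.851). Without control replicate 2 the log2 difference was 0.13, and without control replicate 1 it was 0.31. SLC6A8 lies on chromosome X from 153688099 to 153696593.

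SLC27A4, a fatty acid transport protein, was at 25.6, 24.8 and 25.2 FPKM with ITGB4 siRNA and at 24.4, 21.3 and 20.6 FPKM with control siRNA. SLC44A2, a choline transporter-like protein, was at 6.74, 6.66 and 6.25 FPKM with ITGB4 siRNA against 6.26, 5.46 and 5.61 FPKM with control siRNA. The groups of SLC27A4 were apart, those of SLC44A2 overlapped between ITGB4 siRNA replicate 3 and control replicate 1, and in both genes control replicate 1 was the highest control (log2 differences 0.19 and 0.16, limma adjusted p = 0.806 and 0.852).

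SLC39A8, an importer of zinc and manganese, was at 13.4, 12.8 and 13.1 FPKM with ITGB4 siRNA and at 13.8, 14.9 and 15.1 FPKM with control siRNA. SLC30A1, which exports zinc from the cell, was at 17.5, 16.3 and 16.6 FPKM with ITGB4 siRNA against 15.2, 16.0 and 15.6 FPKM with control siRNA. SLC41A1, a magnesium carrier, was at 9.12, 9.08 and 9.01 FPKM with ITGB4 siRNA against 10.2, 9.23 and 9.96 FPKM with control siRNA. The groups were apart in all 3 of these metal carriers, with SLC39A8 and SLC41A1 lower and SLC30A1 higher with ITGB4 siRNA. Limma adjusted p-values were 0.806, 0.928 and 0.938 for SLC39A8, SLC30A1 and SLC41A1. Of the zinc uptake family SLC39, 4 of 7 members had a log2 difference above 0, the highest being SLC39A7 at 0.17. Of the family SLC30, named for zinc efflux, 5 of 5 members did. The signs of SLC30A5 and SLC30A10 changed in fits without 1 library, and both genes were named after their values were seen.

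SLC37A4, which brings glucose 6-phosphate into the endoplasmic reticulum, was at 6.83, 7.44 and 6.85 FPKM with ITGB4 siRNA and at 8.46, 7.56 and 7.81 FPKM with control siRNA. SLC25A13, the mitochondrial aspartate and glutamate exchanger, was at 41.2, 43.6 and 41.4 FPKM with ITGB4 siRNA against 38.6, 41.1 and 38.8 FPKM with control siRNA. SLC9A3, the sodium-proton exchanger of the brush border, was at 7.83, 7.77 and 7.58 FPKM with ITGB4 siRNA against 7.45, 5.65 and 7.08 FPKM with control siRNA. The groups were apart in all 3 genes, and control replicate 2 was far below the other libraries in SLC9A3. The log2 differences of SLC37A4, SLC25A13 and SLC9A3 were -0.15, 0.09 and 0.18 (limma adjusted p = 0.841, 0.938 and 0.938). SLC37A4 overlaps TRAPPC4 (8.90 FPKM) and SLC9A3 overlaps SLC9A3-AS1 (33.2 FPKM), both on the other strand, so their values are uncertain if strand was not used. Over all members, 30 overlap a gene of at least 1 FPKM on the opposite strand and 5 on the same strand.

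**Figure D3:**
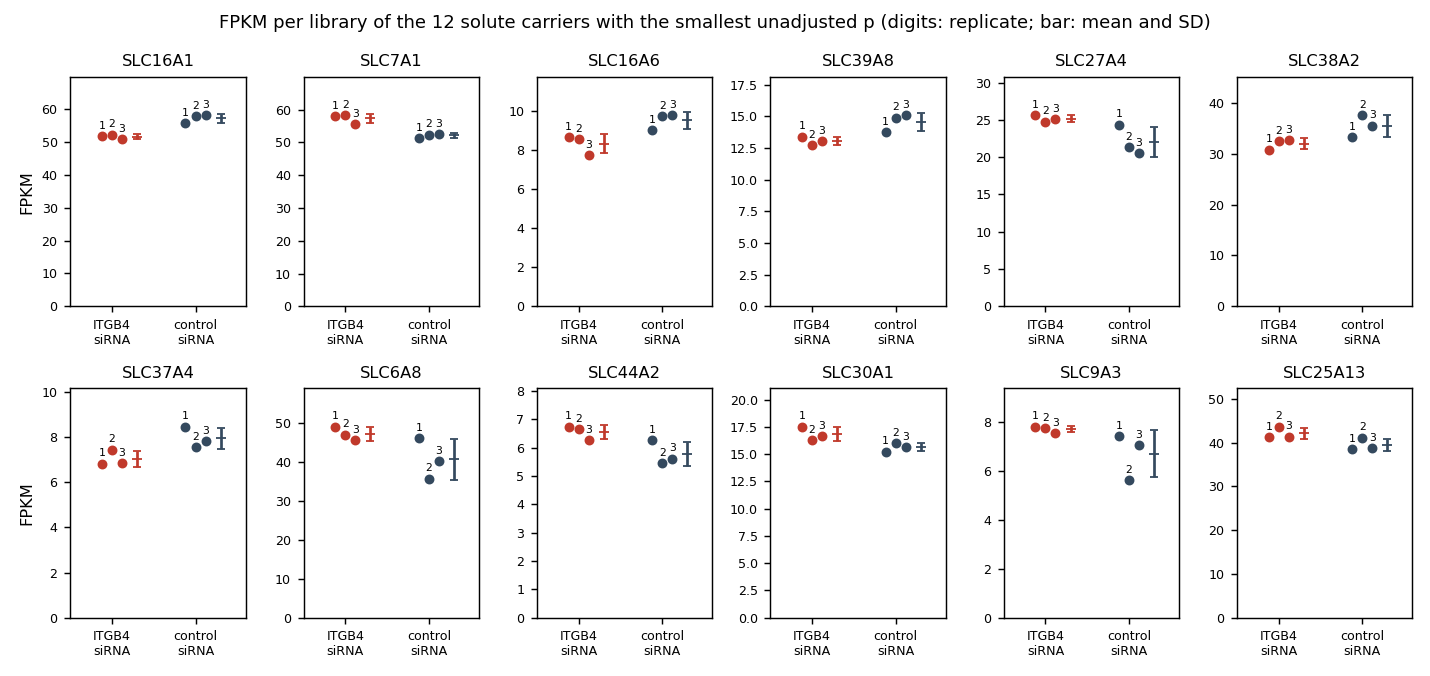
FPKM of each library for the 12 solute carriers with the smallest unadjusted p, with ITGB4 siRNA left of control siRNA, axes from 0, digits for the replicate numbers and bars for the mean and SD (n = 3). Differences between the groups are a small part of each level, and control replicates 1 and 2 lie far apart in SLC6A8 and SLC9A3.

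Short sites in the 3′ UTR of members are shown because the 7-base word TTGGATA had been singled out among lower genes in an earlier scan of these libraries, and the first pair of sites belongs to the members with an unadjusted p under 0.05 that carry it, both of them lower. The word is in capitals, the sequences are read 5′ to 3′ on the transcript strand alone, and the longest 3′ UTR of GENCODE release 29 (GRCh38) was searched.
SLC38A2: tgtttaacTTGGATAttttatga
SLC37A4: aggcgcagTTGGATAtaggtggg
SLC5A3: tcctaggtTTGGATAgagagatg
SLC30A1: aatgcagtTTGGATAttaaattc
These sites lie at chr12:46360776-46360798 (minus strand), chr11:119024403-119024425 (minus), chr21:34101038-34101060 (plus) and chr1:211574323-211574345 (minus). SLC5A3, a carrier of myo-inositol whose gene overlaps MRPS6 (51.2 FPKM) on the same strand, was named after its values were seen, with a log2 difference of -0.10, and SLC30A1 went the other way at 0.10. In all, 9 members (7.96%) carry the word, beside 11.4% of the 10574 protein-coding genes tested with a 3′ UTR. Their log2 differences were below 0 in 5 and above 0 in 4, and the median was -0.0026, against 0.0084 for members without it. The 2 sets also differ in the median length of the 3′ UTR, 2925 bases with the word and 1483.5 without it. Over all genes tested that carry the word the median log2 difference was -0.026, against -0.0034 over all genes tested. The word had been picked among lower genes of these same libraries. A lower median among its carriers can follow from that choice, so neither it nor the first pair of sites is separate support. The overlapping word ATTGGAT is carried by 9 members, 4 below and 5 above 0. The sites are a description, and whether they bear on the levels was not tested.

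Libraries of one group differed from each other in the members. The range over the 3 libraries had a median of 0.12 on the log2 scale with ITGB4 siRNA and 0.181 with control siRNA. Control replicate 1 was the highest of the 6 libraries in 38 members and the lowest in 24, and control replicate 2 was the lowest in 37 and the highest in 19. The first principal component of the members took 58.5% of their variance and placed control replicate 1 (1.08) and ITGB4 siRNA replicate 1 (0.71) opposite control replicate 2 (-1.23). The second took 17.7% and was positive in the 3 ITGB4 siRNA libraries and negative in the 3 controls.

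This spread moved with base composition. The GC content of the longest protein-coding transcript ran from 34.2% to 68.1% over the members, with a median of 52.9%. Across the 113 members, the deviation of ITGB4 siRNA replicate 1 from the 6-library mean had a Pearson correlation with GC content of 0.59. The correlation was -0.18 and -0.27 for ITGB4 siRNA replicates 2 and 3. For control replicates 1, 2 and 3 it was 0.78, -0.78 and -0.21. Over 10585 protein-coding genes tested the same values were 0.47, -0.25 and -0.19 with ITGB4 siRNA and 0.69, -0.68 and -0.17 with control siRNA. These are correlations across genes of shared libraries, given as a description.

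The genes at both ends show its size. SLC2A4RG, with the highest GC content, was at 74.9, 63.4 and 65.0 FPKM with ITGB4 siRNA and at 86.3, 53.3 and 66.1 FPKM with control siRNA. SLC25A40, a mitochondrial carrier with the lowest GC content, was at 7.57, 8.15 and 9.38 FPKM with ITGB4 siRNA against 7.68, 10.5 and 8.94 FPKM with control siRNA. Control replicate 1 minus control replicate 2 was thus 0.69 (log2) in SLC2A4RG and -0.41 in SLC25A40. The 20 members of highest GC content had a median deviation of 0.18 in control replicate 1 and -0.14 in control replicate 2, and the 20 of lowest GC content had -0.083 and 0.12. SLC1A5, SLC7A5 and SLC25A6, with a GC content of 61.3%, 61.1% and 64.9%, were each higher by 0.29 in control replicate 1 than in control replicate 2. SLC25A40 and, among the extremes, SLC52A2 and SLC25A1 were named after their values were seen. SLC52A2, a riboflavin carrier, and SLC25A1, the mitochondrial citrate carrier, differed by 0.51 and 0.43. How the trend arose was not tested.

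**Figure D4:**
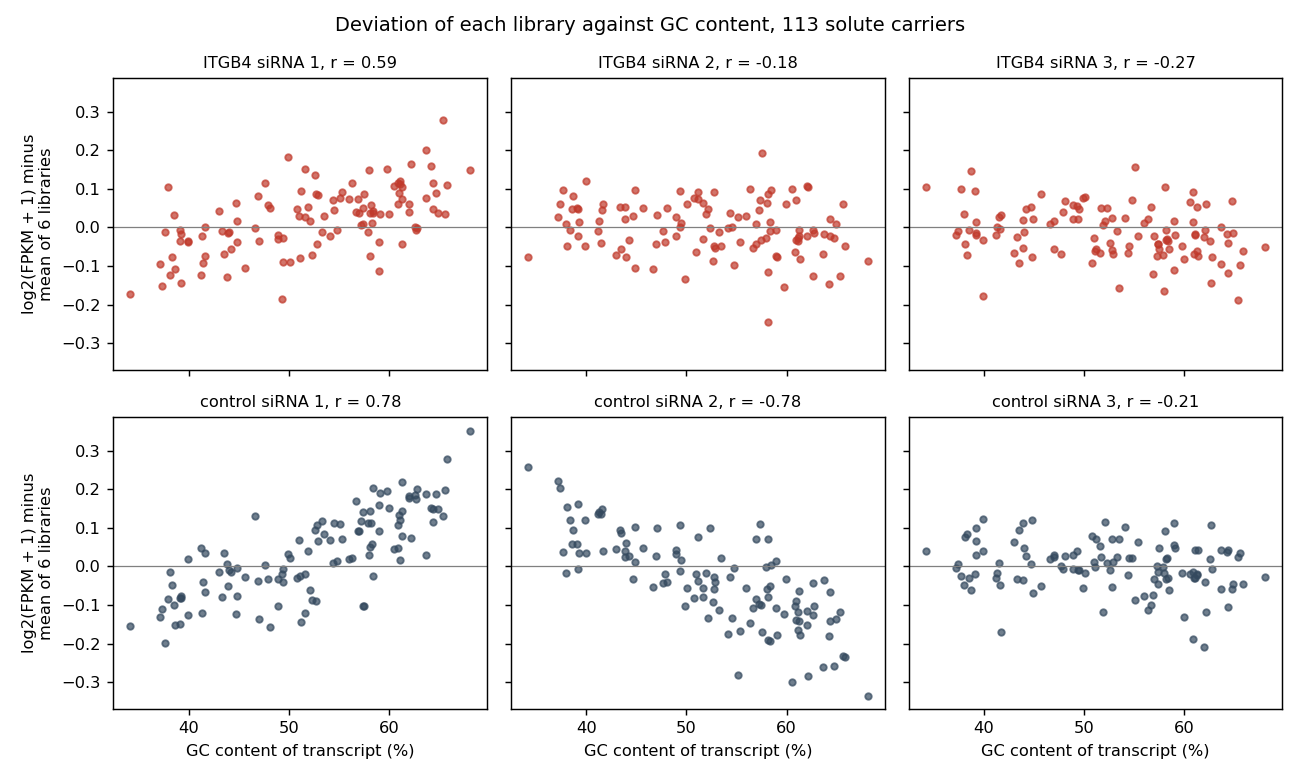
Deviation of log2(FPKM + 1) from the 6-library mean against the GC content of the transcript (%), 1 point for each of the 113 solute carriers and 1 panel per library, ITGB4 siRNA above and control siRNA below, with Pearson's r in each panel title. Control replicate 1 slopes up (0.78) and control replicate 2 slopes down (-0.78), and ITGB4 siRNA replicate 1 slopes up less steeply (0.59).

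The difference between the groups had a weaker relation to GC content, with a correlation of 0.17 over the members and 0.04 over all protein-coding genes tested. A smooth trend on GC content was then subtracted from each library, a step added once the trend had been seen. The median SE of the members' log2 difference was 0.0509, against 0.0693 for the same members in an uncorrected fit of the same 10585 genes. The SE was smaller after correction in 110 of 113 members. SLC2A4RG had an SE of 0.058 after correction and 0.144 before it. The first component of the corrected members took 33.3% of the variance and was positive in the 3 ITGB4 siRNA libraries and negative in the 3 controls.

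After this correction limma called 1 of 113 members (0.885%), beside 122 of 10585 genes (1.15%). For the same genes uncorrected it called 0 members and 17 genes (0.161%), and all 17 were among the 122. The member was SLC6A8, whose corrected log2 values were 5.59, 5.63 and 5.57 with ITGB4 siRNA and 5.42, 5.32 and 5.38 with control siRNA. Its groups were then apart, with a log2 difference of 0.22 (SE 0.0353, limma adjusted p = 0.0149, against 0.716 for the same genes uncorrected). The call was not stable to leaving out a library: the limma adjusted p was 0.0122 without control replicate 1 and 0.0523 to 0.0831 without any 1 of the other 5 libraries.

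At an unadjusted p under 0.05 the corrected fit had 21 members (18.6%), 11 higher and 10 lower, beside 12.5% of all genes in it (6.41% higher and 6.11% lower). The groups were apart in 14 members higher and 11 lower, beside 9.72% and 9.17% of all genes, and 18.9% in either direction. The 21 included the 9 members at that level in the uncorrected fit. Among metal carriers they were SLC30A1, SLC30A6 and SLC30A9 of the zinc efflux family and SLC39A7 of the zinc uptake family, all with positive differences, and SLC39A8 and SLC41A1, both with negative ones. Those not described above were named after their values were seen. After the correction the groups of SLC30A1 and SLC39A7 overlapped, and those of SLC30A6, SLC30A9, SLC39A8 and SLC41A1 were apart. The 21 also hold members of every other class. SLC30A6 was at 11.6, 12.6 and 12.6 FPKM with ITGB4 siRNA and at 10.1, 12.05 and 11.5 FPKM with control siRNA before correction (corrected log2 difference 0.15, limma adjusted p = 0.128). SLC27A4 and SLC16A1 came closest to the threshold after SLC6A8, with corrected log2 differences of 0.19 and -0.14 (limma adjusted p = 0.0852 and 0.0897). The sign turned in 4 members, all within 0.02 of 0.

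**Figure D5:**
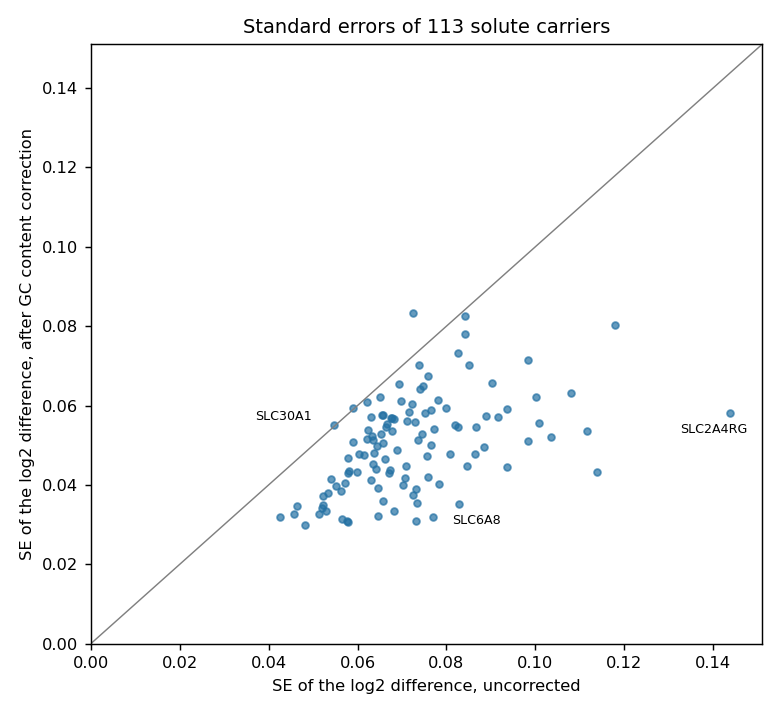
Standard error of the log2 difference for the 113 solute carriers, uncorrected (horizontal) and after the GC content correction (vertical), with the line of equality. Of the members 110 lie below the line, with SLC2A4RG and SLC6A8 far below it and SLC30A1 just above it.

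Genes that work with the carriers were taken from 3 lists. Of 12 tested chaperones, gradient pumps and regulators of carriers, 0 were called (0.0466% of all genes tested), and unadjusted p-values under 0.05 were found for 0 higher genes and 1 lower gene, beside 2.91% and 2.92% of all genes. The lower one was MT2A, a metallothionein that binds zinc and copper, at 265.1, 315.1 and 358.1 FPKM with ITGB4 siRNA and at 470.5, 415.4 and 388.5 FPKM with control siRNA. Its groups were apart (log2 difference -0.45, SE 0.118, limma adjusted p = 0.6, and 0.106 after the GC content correction). STK39, a kinase that acts on cation-chloride cotransporters, was at 13.8, 13.8 and 13.3 FPKM with ITGB4 siRNA against 10.8, 13.1 and 12.5 FPKM with control siRNA (log2 difference 0.16, limma adjusted p = 0.883).

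Of 28 tested carriers without a solute carrier symbol, 0 were called, and unadjusted p-values under 0.05 were found for 1 higher gene and 0 lower genes, to be read against the same shares. That one was UCP2, a mitochondrial carrier, at 3.68, 3.90 and 4.25 FPKM with ITGB4 siRNA and at 3.15, 2.98 and 3.51 FPKM with control siRNA (log2 difference 0.23, limma adjusted p = 0.761). MFSD2A, a lysophospholipid carrier, was at 3.73, 3.82 and 3.72 FPKM with ITGB4 siRNA against 5.01, 4.02 and 4.19 FPKM with control siRNA (limma adjusted p = 0.88). The groups of both genes were apart. Of 17 ABC transporters, which hydrolyse ATP, 0 were called and 0 had an unadjusted p under 0.05, beside 5.83% of all genes. ABCA7 and TAP1, with the smallest p-values of that list, had log2 differences of -0.15 and -0.10 and groups that overlapped (limma adjusted p = 0.993 and 0.998).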

How the data were processed

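RNA-seq of 6 SW480 libraries was analysed from a table in which the authors deposited FPKM per gene and library with the gene length in bases, on GRCh38 per the submitters' processing notes, which also name DESeq2 and edgeR without a role. The aligner and counting tool are not given in the sources used here. FPKM times gene length, divided by the worth of 1 read in each library, came out whole for 100% of values (tolerance 0.01), so reads were recovered. The median ratio to the gene-wise geometric mean was equal in all libraries to a relative 1.06e-09. The deposited values thus appear to be scaled by it already, and rescaling by it could change nothing.

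Sample titles gave the groups. All genes with a mean of at least 1 FPKM were fitted on log2(FPKM + 1) with limma 3.58.1 in R 4.3.3 (limma-trend, no replicate term, two-sided, Benjamini-Hochberg over 12871 genes, called under 0.05). Fold changes on this scale understate changes of low genes. Single genes also had an exact two-sided permutation test. GC content was taken from GENCODE release 29 for 10585 of 10592 protein-coding genes tested, and a lowess trend (span 0.3) of each library's deviations was subtracted as an alternative. The fits were also run on simulated data with independent normal noise and planted changes, and for the correction with a planted linear trend on GC content. The outcome is not reported here and is not used as support for any call. Python 3.11.15 with pandas 2.3.3 and numpy 2.4.6 made the summaries.

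Members, classes and lists were chosen with earlier results of these data known. The text names the 14 members with the smallest unadjusted p, of which 1 is not reported here, those called, the 6 most abundant and the leading one of each class, the 3 on either side of the threshold and 2 genes per companion list. Classes follow the number of the carrier family. Alternatives were the pseudocount, filter, scaling, limma-voom, replicate block and leaving out each library.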

Additional observations from a re-analysis of the deposited data

How the results depend on the processing

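The count of all genes called by limma was 6 and depended on the processing. It was 0 without the filter on low values, 0 with a replicate block, 26 with limma-voom and 0 to 7 when 1 library was left out. It was 17 over protein-coding genes alone, 122 after the GC content correction and 92 after that correction with a replicate block. With the correction and without 1 library it was 53, 51 and 55 (ITGB4 siRNA replicates 1, 2 and 3) and 118, 68 and 41 (control replicates 1, 2 and 3). The alternatives on protein-coding genes were added after the data were seen.

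Solute carriers called were 0 in the uncorrected fits, 1 after the GC content correction, 1 after it with a replicate block, and 0 to 1 after it without 1 library, with 1 without control replicate 1. The median log2 difference of the members was 0.00695 in the main fit. Without 1 library, uncorrected, it ran from -0.0207 (without control replicate 2) to 0.0240 (without control replicate 1), so its sign was not stable. ITGB4 stayed at -0.81 but missed the threshold without the filter (limma adjusted p = 0.0618) and with a replicate block (0.0564), and ranged from -0.87 to -0.76 when 1 library was left out. Same-numbered libraries had correlations of deviations of 0.173, 0.102 and -0.01. The labels do not say whether the numbers pair samples, and the main fit had no replicate term. With a replicate block 1064 genes had an unadjusted limma p under 0.05, against 750 in the main fit, although 0 passed the adjusted threshold. Among the members these were 11 with the block and 9 without it. Libraries numbered 1 and 2 correlated best with their own number and those numbered 3 did not. These correlations were of uncorrected values. The correlation with GC content was also positive in both libraries numbered 1 and negative in all others. What gave the match of numbers was not tested.

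Over 35 named genes and 767 comparisons with an alternative, 731 kept direction and side of the threshold, 4 passed it and 32 changed sign. The filters, the replicate block and the uncorrected fit of protein-coding genes leave the log2 difference as it is, and the rescaling nearly so. Comparisons with these could not change direction, so the 731 do not measure how stable the directions are. The 4 were SLC6A8 in 3 corrected fits and MT2A (-0.55, limma adjusted p = 0.0445) after correction without ITGB4 siRNA replicate 3. The sign changes came when 1 library was left out, in members near 0, and their cause was not tested. Over fits without 1 library the log2 difference ran from -0.015 to 0.073 for SLC15A4, -0.053 to 0.089 for SLC1A5, -0.059 to 0.059 for SLC20A1, -0.041 to 0.10 for SLC25A6, -0.16 to 0.18 for SLC2A4RG, -0.066 to 0.041 for SLC35B2, -0.026 to 0.066 for SLC39A14, -0.073 to 0.048 for SLC3A2, -0.14 to 0.038 for SLC4A7, -0.021 to 0.12 for SLC7A5 and -0.074 to 0.0027 for SLC7A8, and SLC4A2 was at 0.041 without control replicate 1. With the correction and without 1 library, the changed signs were -0.00050, -0.017 and -0.016 (SLC15A4), -0.0046 (SLC1A5), -0.0013 and -0.047 (SLC20A1), -0.00090 (SLC25A5), -0.035 (SLC2A4RG), 0.0061 (SLC35B2), -0.033 and -0.00022 (SLC39A14), 0.0035 (SLC3A2) and 0.018 (SLC4A7).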

Other observations

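Solute carriers below the level of the members, with a mean of 1 to 5 FPKM, were tested in the same fit. Of these 71 genes 38 had a log2 difference above 0 and 33 below, with a median of 0.011, and limma called 0 of them. Unadjusted limma p-values under 0.05 were found for 1 higher and 3 lower genes, beside 2.91% and 2.92% of all genes tested. Limma-voom gave 0 calls. The GC content correction gave 0 calls and 6 unadjusted p-values under 0.05, beside 12.5% of all genes in that fit. The genes named here were chosen after their values were seen, by the smallest unadjusted p. SLC9A8, a sodium-proton exchanger of the Golgi, was at 4.87, 4.82 and 4.57 FPKM with ITGB4 siRNA and at 3.86, 3.88 and 4.30 FPKM with control siRNA. Its groups were apart (log2 difference 0.20, SE 0.0625, limma adjusted p = 0.729). SLC19A2, a thiamine carrier, was at 2.97, 3.23 and 2.67 FPKM with ITGB4 siRNA and at 3.42, 3.63 and 3.55 FPKM with control siRNA, with groups apart in the other direction (log2 difference -0.20, limma adjusted p = 0.813).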
